A study of Homo sapiens with 12 samples.

Results

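The genes described here are 10 members of the pathway by which leukaemia inhibitory factor (LIF) signals to the nucleus: the receptor chains LIFR, IL6ST and IL6R, the kinase JAK1, the transcription factor STAT3, and 5 genes reported as STAT3 targets, SOCS3, PIM1, BCL3, JUNB and GBX2. They were chosen by name, with earlier results of these data known, from the 23615 gene symbols of the deposited tables. All 10 were found and passed the filter on low values. The study set primed against naive human pluripotency in 2 established embryonic stem cell lines, H9 and RUES2, by sequencing poly(A) RNA of colonies picked by hand. There are 4 groups of 3 libraries. The libraries are called biological replicates, but nothing says that they came from separate cultures, so a p-value here reflects only library-to-library spread, which may be technical.

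Primed H9 (passages 31 to 35) and primed RUES2 (passages 30 to 33) grew on mouse fibroblast feeders stopped with mitomycin C, in a serum-replacement medium with 4 ng/mL bFGF. The labels name no LIF for that medium. Naive H9 (passages 27 to 31) and naive RUES2 (passages 24 to 26) grew in a medium with 20 ng/mL human LIF, 1 µM PD0325901, an inhibitor of MEK, 3 µM CHIR99021, an inhibitor of GSK3, 5 mM glucose and 18 µg/mL insulin. The labelled media thus differ in LIF, both inhibitors and bFGF. Glucose and insulin are given for the naive medium only, and the passage ranges differ too. The effect of LIF alone cannot be told apart from the others.

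LIF binds LIFR, which pairs with IL6ST, the signalling chain shared by receptors of this cytokine family. JAK kinases bound to these chains then phosphorylate STAT3, which enters the nucleus and switches on target genes, among them SOCS3, an inhibitor that shuts the receptor down. In mouse embryonic stem cells this route maintains self-renewal, and human cells in primed culture are known not to depend on it. RNA levels report neither receptor protein nor STAT3 phosphorylation, and neither was measured here.

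Values are FPKM, fragments counted relative to transcript length and library depth, as the authors deposited them. Differences between groups were tested with limma on log2(FPKM + 1) over the 14428 genes that reached 1 FPKM in 3 or more libraries, and a gene was called at a Benjamini-Hochberg adjusted p under 0.05. A log2 difference on this scale understates the change of genes with low values. FPKM sums ran from 754195 to 986124 per library, and 12681 to 13592 genes reached 1 FPKM. Read counts are not part of the tables. If the deposited bounds are read as 2 standard deviations of counting error, a STAT3 value rested on 1189 to 2323 fragments, whereas BCL3 rested on 16 to 121, JUNB on 25 to 278 and GBX2 on 4 to 1355. The genotype did not match the label of the line in 3 libraries of the 12, and 0 of these were labelled H9, so H9 is given first and RUES2 stands for libraries labelled RUES2. The unmatched libraries make up 1 whole group, naive RUES2. Every comparison of naive with primed RUES2, of the naive groups with each other, of the mean of both lines and of the line difference therefore sets different genotypes against each other, and state or line cannot be told apart from genotype in them. Only the H9 comparison and the comparison of the primed groups could be run without these libraries. In bulk RNA, fewer cells of a type and less RNA per cell cannot be told apart.

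Promoters are shown for LIFR, whose windows held the STAT motif, and for IL6ST and GBX2, the members with the largest differences between states. They come from RefSeq on GRCh38.p14, a later build than the hg19 of the expression tables. All 10 members matched, with 15 windows of 300 bases that run from 250 before to 50 after a start site. The motif searched was TTCNNNGAA, which reads the same on both strands and is the core that STAT factors bind. It was in 2 of the 15 windows, both of them among the 3 of LIFR, and in 7.66% of all 35116 windows of that length. Counted by gene, 1 of the 10 members had a match, beside 9.38% of all gene symbols. Capitals mark the match, and each sequence is on the minus strand, read towards the gene.
LIFR, chr5:38557595-38557694: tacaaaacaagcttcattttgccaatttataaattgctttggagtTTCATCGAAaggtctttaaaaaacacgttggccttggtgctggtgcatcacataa
LIFR, chr5:38595516-38595615: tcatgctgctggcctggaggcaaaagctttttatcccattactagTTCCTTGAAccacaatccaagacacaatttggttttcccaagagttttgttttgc
IL6ST, chr5:55994964-55995213: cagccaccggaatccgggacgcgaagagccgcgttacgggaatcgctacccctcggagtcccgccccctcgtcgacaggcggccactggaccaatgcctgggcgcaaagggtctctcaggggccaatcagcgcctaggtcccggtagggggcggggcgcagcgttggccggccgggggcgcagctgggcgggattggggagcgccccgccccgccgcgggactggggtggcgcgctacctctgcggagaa
GBX2, chr2:236168387-236168636: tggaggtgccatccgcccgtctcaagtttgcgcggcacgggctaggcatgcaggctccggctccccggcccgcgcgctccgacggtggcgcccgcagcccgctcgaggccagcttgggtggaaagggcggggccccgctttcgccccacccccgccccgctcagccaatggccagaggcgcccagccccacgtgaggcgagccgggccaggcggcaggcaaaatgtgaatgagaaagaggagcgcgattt
The first LIFR match, TTCATCGAA, lay 182 to 174 bases before its start site, and the second, TTCCTTGAA, lay 165 to 157 bases before another start site. The 250 bases of IL6ST and of GBX2 hold no match, which says only that these letters are not in that stretch. A match is a description of the sequence, not evidence of binding.

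In H9, 5 of the 10 members were higher in the naive state and 0 were lower, where 20.4% of all genes tested were called higher and 23.9% lower. The 5 were IL6ST, IL6R, SOCS3, BCL3 and GBX2. In RUES2, where state and genotype cannot be told apart, the count was 8 higher and 0 lower, against 23.1% and 23.6% of all genes, and LIFR, STAT3 and JUNB joined the same 5. The median log2 difference of the members was 0.45 in H9 and 0.91 in RUES2, beside -0.01 and 0.01 over all genes tested. JAK1 and PIM1 were called in neither line. Values of the naive libraries lay above all primed ones for 6 members in H9 and below them for 0, where 27% and 30.3% of all genes did so. In RUES2 the counts were 8 and 0, against 29% and 28.3% of all genes. Since the members were chosen with earlier results of these data known, these counts are a description.

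**Figure D1:**
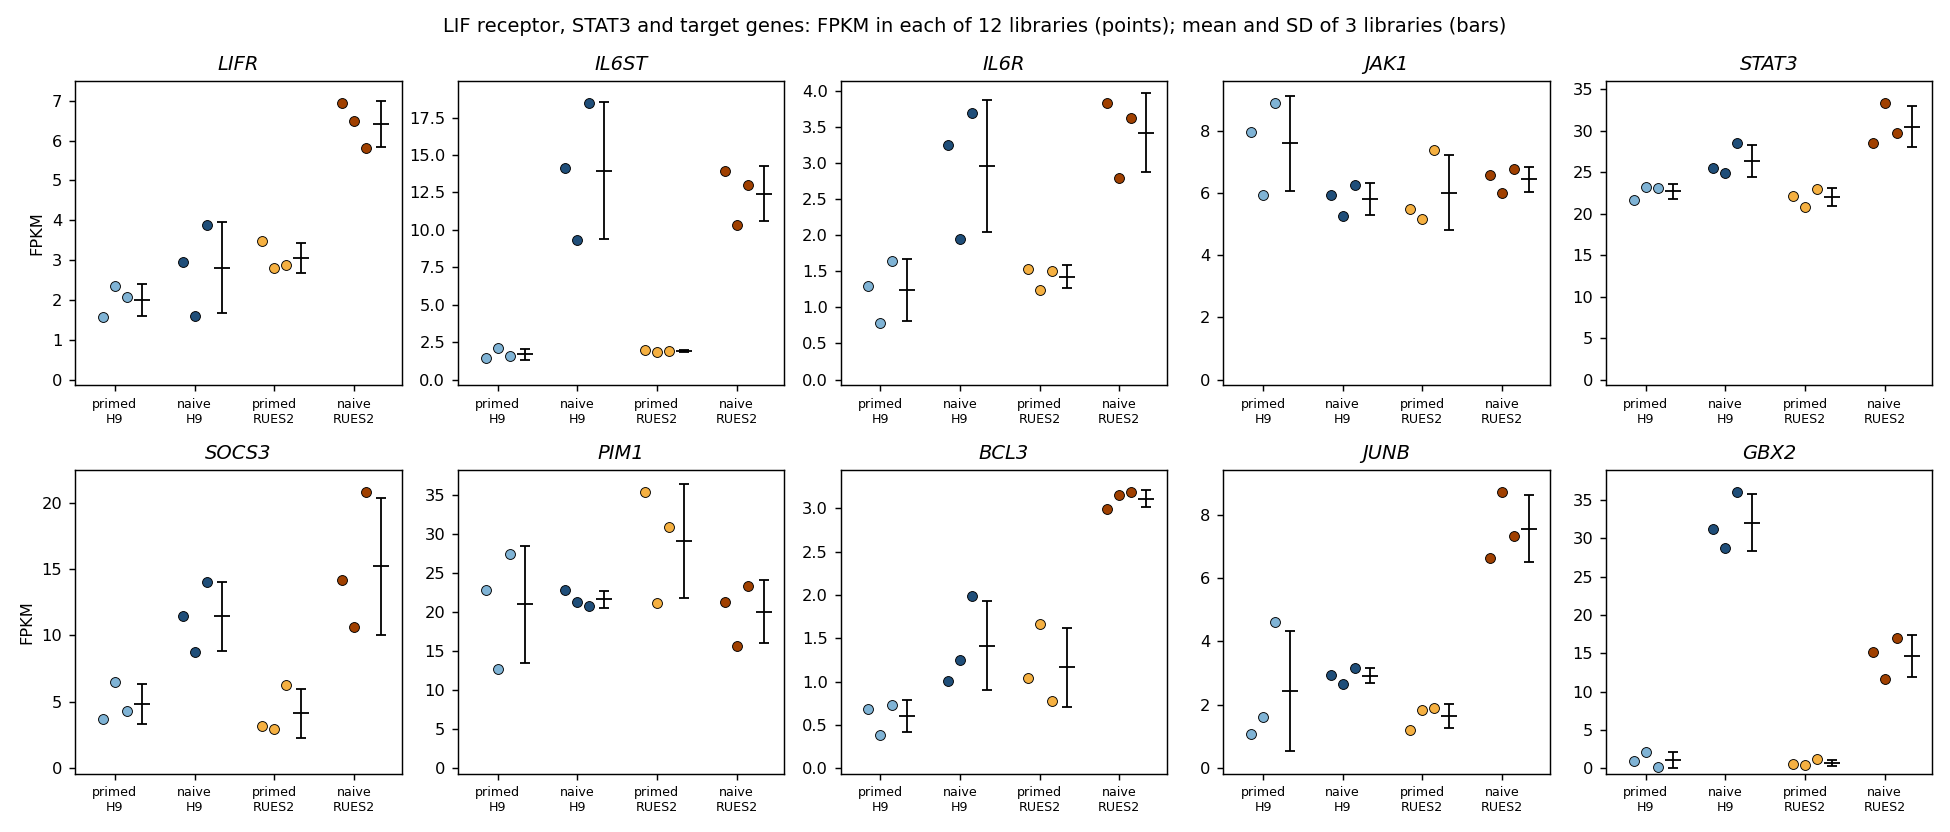
FPKM (vertical axes from about 0, a different range for each gene) of the 10 genes in each of 12 libraries, by group on the horizontal axis; points are libraries and bars are the mean and SD of 3. IL6ST and GBX2 separate the states by the widest margins, while the JAK1 and PIM1 values of the states overlap.

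LIFR, the chain that binds LIF, was expressed at a low level in all 12 libraries. In the hg19 tables it spans chromosome 5 from 38475065 to 38595507. Primed H9 libraries had 1.56, 2.34 and 2.06 FPKM, and naive H9 libraries had 2.96, 1.60 and 3.87. Replicate 2 of naive H9 lay within the primed range, so the groups overlapped, and the log2 difference of 0.31 (SE 0.20) was not called (adjusted p = 0.229). Without that library it was 0.56 and was called (adjusted p = 0.0165). Primed RUES2 libraries had 3.48, 2.79 and 2.86 FPKM, and naive RUES2 libraries had 6.94, 6.49 and 5.80. Here the states did not overlap, and LIFR rose by 0.88 (SE 0.20, adjusted p = 0.00503), which is 2.11-fold on mean FPKM. MIR3650 overlaps LIFR in the tables, with up to 956.8 FPKM, which is a level per length and not a share of reads. Whether the libraries keep strand is not stated, and reads of the 2 were not told apart here.

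IL6ST, the shared signalling chain, showed the second largest difference of the members in both lines. It lies on chromosome 5 from 55230925 to 55290821 (hg19). Its values were 1.43, 2.09 and 1.54 FPKM in primed H9 and 14.1, 9.31 and 18.5 in naive H9. They were 1.96, 1.85 and 1.91 in primed RUES2 and 13.9, 10.3 and 13.0 in naive RUES2. Every naive library stood far above every primed one. IL6ST rose by 2.44 on the log2 scale in H9 (SE 0.20, adjusted p = 1.12e-05) and by 2.20 in RUES2 (SE 0.20, adjusted p = 2.07e-05), 8.29-fold and 6.52-fold on mean FPKM.

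The balance of both chains differed between states. Per library, IL6ST over LIFR in FPKM was 0.745 to 0.918 in primed H9 and 4.77 to 5.81 in naive H9. It was 0.563 to 0.666 in primed RUES2 and 1.59 to 2.24 in naive RUES2. LIFR was thus the more abundant transcript per length in all 6 primed libraries, and IL6ST in all 6 naive ones. No test was run on these ratios.

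IL6R, the chain that binds interleukin 6 and pairs with IL6ST, had 1.29, 0.790 and 1.64 FPKM in primed H9 and 3.25, 1.94 and 3.70 in naive H9. Primed RUES2 had 1.54, 1.24 and 1.50 FPKM, and naive RUES2 had 3.83, 2.80 and 3.63. The naive values lay above the primed ones in both lines without overlap. IL6R rose by 0.81 in H9 (SE 0.19, adjusted p = 0.00642) and by 0.86 in RUES2 (SE 0.19, adjusted p = 0.00431), with ratios of mean FPKM of 2.39 and 2.40. Since the ratio of IL6ST was above that of IL6R in each line, IL6R over IL6ST was lower in naive libraries: it was 0.379 to 1.06 in primed H9 and 0.200 to 0.230 in naive H9.

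JAK1, a kinase bound to IL6ST, was not called in either line. Primed H9 had 7.97, 5.92 and 8.89 FPKM and naive H9 had 5.94, 5.24 and 6.24, with overlap at replicate 2 of primed H9. The log2 difference was -0.32 (95% interval -0.65 to 0.01, adjusted p = 0.102), and without that library JAK1 was called lower, at -0.47 (adjusted p = 0.019). Primed RUES2 had 5.49, 5.15 and 7.38 FPKM and naive RUES2 had 6.57, 5.98 and 6.76, which also overlapped. The difference there was 0.10 (95% interval -0.23 to 0.43, adjusted p = 0.617). JAK1 overlaps RAVER2, which reached 11.32 FPKM.

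STAT3 itself was among the most abundant members in every group and differed little between states. Primed H9 libraries had 21.7, 23.3 and 23.1 FPKM and naive H9 libraries 25.5, 24.9 and 28.6. Although these ranges did not overlap, the difference of 0.21 (95% interval 0.03 to 0.38) missed the threshold (adjusted p = 0.0554). It was called without replicate 2 of naive RUES2, which enters through the shared estimate of the spread (adjusted p = 0.0385). Primed RUES2 had 22.2, 20.9 and 23.0 FPKM and naive RUES2 had 28.5, 33.3 and 29.7. STAT3 rose there by 0.45 (SE 0.08, adjusted p = 0.00105), 1.39-fold on mean FPKM.

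SOCS3, the feedback inhibitor of JAK kinases and of IL6ST, had 3.68, 6.51 and 4.32 FPKM in primed H9 and 11.5, 8.79 and 14.0 in naive H9. It had 3.20, 2.94 and 6.24 FPKM in primed RUES2 and 14.2, 10.6 and 20.8 in naive RUES2. All naive values exceeded all primed ones. SOCS3 rose by 1.10 in H9 (SE 0.30, adjusted p = 0.0129) and by 1.67 in RUES2 (SE 0.30, adjusted p = 0.00122), which is 2.36-fold and 3.69-fold on mean FPKM. Without replicate 3 of naive H9 the H9 call was lost (0.95, adjusted p = 0.0509). Relative to STAT3, SOCS3 was 0.170 to 0.280 in primed H9 and 0.353 to 0.491 in naive H9, and 0.141 to 0.271 and 0.318 to 0.701 in RUES2.

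GBX2, a homeobox factor reported as a LIF and STAT3 target in mouse embryonic stem cells, showed the largest difference of the members. It had 0.998, 2.12 and 0.0981 FPKM in primed H9 and 31.3, 28.7 and 36.1 in naive H9. It had 0.550, 0.409 and 1.15 FPKM in primed RUES2 and 15.2, 11.7 and 17.0 in naive RUES2. From near the bottom of the members in primed cells it moved to the highest mean in naive H9, 32.0 FPKM, above STAT3 without overlap. GBX2 rose by 4.11 in H9 (SE 0.32, adjusted p = 7.41e-06) and by 3.21 in RUES2 (SE 0.32, adjusted p = 3.46e-05). On mean FPKM that is 29.9-fold and 20.8-fold, and the primed values rest on few fragments.

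BCL3, an atypical inhibitor of NF-kappa-B that acts in the nucleus, was low throughout. Its values were 0.680, 0.388 and 0.735 FPKM in primed H9 and 1.00, 1.25 and 1.99 in naive H9. They were 1.04, 1.67 and 0.782 in primed RUES2 and 3.00, 3.15 and 3.19 in naive RUES2. The states did not overlap in either line. BCL3 rose by 0.58 in H9 (SE 0.18, adjusted p = 0.0231) and by 0.95 in RUES2 (SE 0.18, adjusted p = 0.00164). The H9 call was lost without replicate 2 of primed H9 (adjusted p = 0.07) or replicate 3 of naive H9 (adjusted p = 0.0892).

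JUNB, a subunit of the AP-1 transcription factor, was called in RUES2 and not in H9. Primed H9 had 1.09, 1.62 and 4.61 FPKM and naive H9 had 2.93, 2.67 and 3.17. Replicate 3 of primed H9 lay above all naive H9 values, and the difference of 0.32 (SE 0.30) was not called (adjusted p = 0.401). Without it, JUNB was called higher at 0.74 (adjusted p = 0.0058). Primed RUES2 had 1.20, 1.85 and 1.90 FPKM and naive RUES2 had 6.64, 8.72 and 7.33, without overlap. JUNB rose there by 1.70 (SE 0.30, adjusted p = 0.00105), 4.59-fold on mean FPKM.

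PIM1, a serine and threonine kinase that promotes survival, was abundant in all 4 groups and was called in neither line. Primed H9 had 22.9, 12.7 and 27.4 FPKM and naive H9 had 22.9, 21.2 and 20.8. Primed RUES2 had 35.4, 21.1 and 30.8 FPKM and naive RUES2 had 21.2, 15.6 and 23.4. The states overlapped in both lines, and the primed libraries spread widely. The log2 difference was 0.11 in H9 (95% interval -0.48 to 0.70, adjusted p = 0.773) and -0.50 in RUES2 (95% interval -1.09 to 0.08, adjusted p = 0.144).

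**Figure D2:**
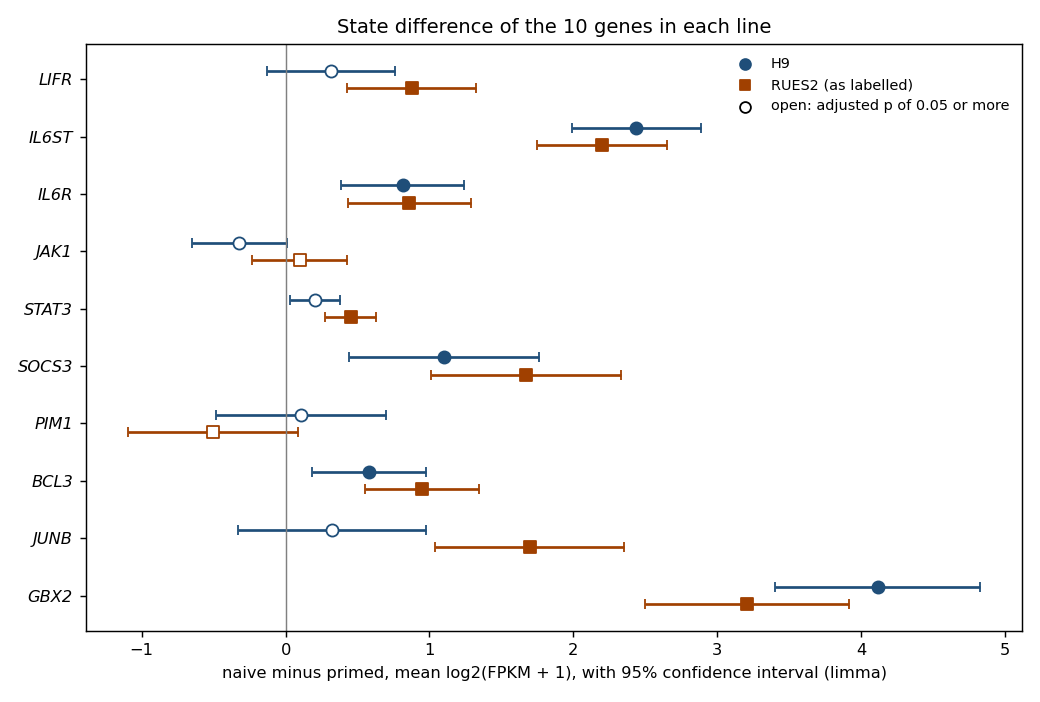
Difference between naive and primed libraries in mean log2(FPKM + 1) for each of the 10 genes in H9 and in RUES2 as labelled, with limma's 95% interval; filled points have an adjusted p under 0.05. GBX2 (4.11 and 3.21) and IL6ST (2.44 and 2.20) lie farthest to the right, and the intervals of JAK1 and PIM1 include 0 in both lines.

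Whether the difference between groups labelled naive and primed was the same in H9 and RUES2 was tested with an interaction term, which holds the genotype of naive RUES2 as well as the line. Of the 10 members 0 were called, where 5.7% of all genes (823 of 14428) were, and 3061 of all genes had an unadjusted p under 0.05. JUNB had the largest value, 1.37 higher in RUES2 than in H9 (95% interval 0.45 to 2.30), with an unadjusted p of 0.00788 and an adjusted p of 0.0866 from limma. It was called without replicate 1 of primed H9 (1.67, adjusted p = 0.0369) or replicate 3 (0.95, adjusted p = 0.0372). For LIFR the interaction was 0.56 (95% interval -0.07 to 1.19, adjusted p = 0.292), so the call in RUES2 alone does not show a difference between H9 and RUES2. Over the mean of both lines, 8 members were called higher and 0 lower, beside 29.2% and 29.9% of all genes. The 8 included LIFR at 0.59 (adjusted p = 0.0045), STAT3 at 0.33 (adjusted p = 0.000538) and JUNB at 1.01 (adjusted p = 0.00193). The 5 members called in H9 were called higher in both lines, which 13.2% of all genes were, and 0 were called lower in both, beside 16.5%.

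Between lines in the primed state 0 of the 10 members were called, beside 1.82% of all genes, although 2063 of all genes had an unadjusted p under 0.05. The ranges of LIFR and BCL3 did not overlap there, being higher in RUES2, as for 8.7% of all genes, and 0 members were lower without overlap, beside 5.93%. Between the naive groups, where the RUES2 label did not match, 3 members were called higher and 1 lower in RUES2, beside 11.2% and 4.69% of all genes. LIFR was higher by 1.00 (adjusted p = 0.00826), BCL3 by 0.79 (adjusted p = 0.0145) and JUNB by 1.12 (adjusted p = 0.0288), while GBX2 was lower, at -1.09 (adjusted p = 0.0443). The ranges of all 4 did not overlap between the naive groups, which held for 26.9% of all genes in the higher and 19.3% in the lower direction. LIFR remained called without any 1 library. The JUNB call was lost without any 1 of the 6 naive libraries (adjusted p = 0.0606 to 0.108). The BCL3 call was lost without replicate 1 (adjusted p = 0.065) or 2 of naive H9 (0.0564) or replicate 2 of naive RUES2 (0.052). The GBX2 call was lost without any 1 naive library, or replicate 1 of primed H9 or of primed RUES2 (adjusted p = 0.0583 to 0.158).

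Since FPKM is a level per length, members can be ordered within a group. In primed H9 the means ran from STAT3 (22.7 FPKM) and PIM1 (21.0), whose ranges overlapped, down to BCL3 (0.601). From JAK1 (7.59) down, each member overlapped the next. In naive H9 the order was GBX2 (32.0), STAT3 (26.3), PIM1 (21.6) and IL6ST (14.0), without overlap between neighbours. IL6ST overlapped SOCS3 (11.4), which came next. In naive RUES2 STAT3 (30.5) led without overlap, and PIM1 (20.1), SOCS3 (15.2), GBX2 (14.6) and IL6ST (12.4) followed, with overlap between neighbours. There IL6ST did not overlap JUNB (7.56), which came next. IL6ST moved from below LIFR in both primed groups to above it in both naive groups.

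The rest of the pathway was read from a list of 56 other genes, also chosen with earlier results known, of which 51 passed the filter. In H9, 8 were higher, 13 were lower and 30 were not called. In RUES2, 15 were higher, 13 lower and 23 not called. Among all genes tested 20.4% were higher and 23.9% lower in H9, and 23.1% and 23.6% in RUES2, and the counts by role that follow stand against these same shares. The median log2 difference of the list was -0.17 in H9 and 0.02 in RUES2. Calls in both lines with 1 direction numbered 15, of which 5 were higher and 10 lower, where 13.2% and 16.5% of all genes were.

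Among the ligands LIF itself was low and was not called: 1.27 ± 0.23 FPKM (SD, n = 3) in primed and 0.80 ± 0.27 in naive H9, 1.34 ± 0.43 in primed and 1.47 ± 0.27 in naive RUES2. IL6 rose in both lines, by 0.62 (adjusted p = 0.0308) and 1.43 (adjusted p = 0.000305), to 2.60 ± 0.83 FPKM in naive RUES2. CLCF1, another ligand of the family, rose in H9 by 0.35 (adjusted p = 0.0237) and was -0.04 in RUES2, and IL11 was -0.21 in H9 and fell in RUES2, at -0.40 (adjusted p = 0.0451). OSM, CNTF and CTF1 were below the filter. The H9 call of IL6 was lost without replicate 2 or 3 of primed H9 or replicate 1 or 3 of naive H9 (adjusted p = 0.0504 to 0.0973), and that of CLCF1 without replicate 1 of primed or 2 or 3 of naive H9 (adjusted p = 0.0505 to 0.0866). The RUES2 call of IL11 was lost without any 1 of 7 libraries (adjusted p = 0.0534 to 0.146), with a pseudocount of 0.1 FPKM (0.0567) or with only the groups compared (0.0573). Without the unmatched libraries IL6 did not pass the filter.

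Of the other receptor chains, CNTFR, which binds ciliary neurotrophic factor and signals through LIFR and IL6ST, rose from 1.52 ± 1.67 to 7.69 ± 0.56 FPKM in H9 (1.97, adjusted p = 0.00154). In RUES2 it rose from 1.14 ± 0.31 to 5.21 ± 1.75 FPKM (1.51, adjusted p = 0.00636). IL27RA, which also pairs with IL6ST, fell in both lines, at -1.34 (adjusted p = 6.71e-05) and -1.33 (adjusted p = 6.62e-05). OSMR, the oncostatin M chain, rose in RUES2 by 0.76 (adjusted p = 0.000772) and was -0.03 in H9 (adjusted p = 0.855). IL11RA was called in neither line. The chains that pair with IL6ST therefore did not move in one direction.

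No other STAT factor was higher in the naive state: of 5 tested, 4 were lower in H9 and 2 in RUES2. STAT5B, which acts downstream of many cytokine receptors, fell from 18.0 ± 3.5 to 8.19 ± 0.36 FPKM in H9 (-1.03, adjusted p = 0.000384). In RUES2 it fell from 17.3 ± 3.7 to 7.35 ± 0.11 FPKM (-1.11, adjusted p = 0.000221). Its close relative STAT5A fell as well, at -0.73 and -0.70 (adjusted p = 0.0097 and 0.0112). These counts of few genes stand beside 23.9% and 23.6% of all genes called lower. Of 3 other kinases, 0 were higher and 1 lower in H9, and 2 were higher and 1 lower in RUES2.

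Among 15 inhibitors, 2 were higher and 4 lower in H9, and 3 were higher and 5 lower in RUES2, beside 20.4% and 23.9%, and 23.1% and 23.6%, of all genes. PTPN6, a phosphatase of JAK and STAT signalling, fell at -0.44 in H9 (adjusted p = 0.0443) and -1.15 in RUES2 (adjusted p = 0.000245). Its H9 call was lost without any 1 of 8 libraries (adjusted p = 0.0536 to 0.154), with median-ratio scaling (0.0584), without a filter (0.0623), with only the groups compared (0.101) and without the unmatched libraries (0.0638). Of 19 other reported targets, 3 were higher and 2 lower in H9, and 7 were higher and 2 lower in RUES2. TIMP1, an inhibitor of metalloproteinases, rose by 0.96 (adjusted p = 0.0346) and 1.02 (adjusted p = 0.0253). Its H9 call was lost without any 1 H9 library (adjusted p = 0.0522 to 0.0998), and its RUES2 call without replicate 2 of primed RUES2 (adjusted p = 0.0764) or with only the groups compared (0.0842).

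**Figure D3:**
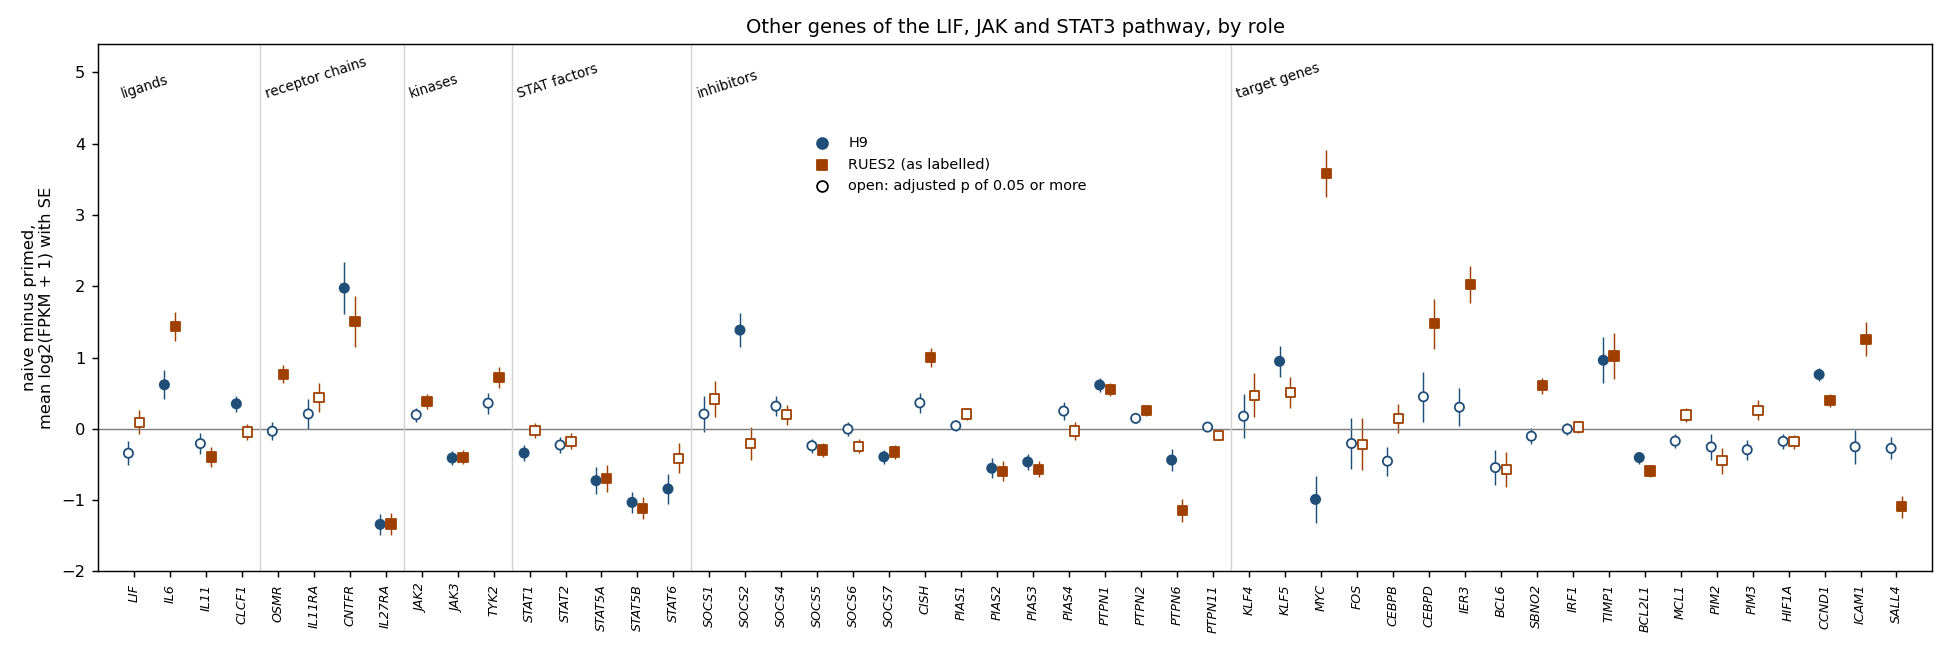
Difference between naive and primed libraries in mean log2(FPKM + 1), with its SE, for the listed pathway genes that passed the filter, 1 left out, grouped by role along the horizontal axis, in H9 and in RUES2 as labelled; filled points have an adjusted p under 0.05. CNTFR lies high and IL27RA and STAT5B lie low in both lines, while MYC lies on opposite sides of 0.

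Genes whose log2(FPKM + 1) ran most like that of a member were found by Pearson correlation over the 12 libraries, which share state, line and depth, so the values are a description. IL6ST was most like SLITRK2 (r = 0.992), PITX1 and TBX20, and WNT8A (0.994) and SIPA1L2 were among the 3 genes most like GBX2. SOCS3 was most like TIMP3 (0.974), ITGA5 and COPG1, and STAT3 most like CHSY3 (0.982), HOXA11 and MRPL53. JUNB was most like NFIX (0.976), SRPR and TWIST1, and LIFR most like ACOX3 (0.975), RHOBTB3 and SARS. For JAK1 and PIM1 the nearest genes, PKNOX1 and PCDHAC1, reached only 0.894 and 0.854. IL6R and BCL3 had no group mean of 5 FPKM and were left out of this search.

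Markers of some other cell types differed between the states, and those of others did not. The counts called here stand beside 20.4% of all genes called higher and 23.9% lower in H9, and 23.1% and 23.6% in RUES2. Of 10 fibroblast markers, 9 passed the filter, and 7 were higher and 1 lower in naive H9, 6 higher and 1 lower in naive RUES2. THY1, which stem cells also express, was the lower one, and FAP was at 0 in all primed libraries and at most 1.22 FPKM in naive ones. The sum of the 10 was 121 to 197 FPKM in primed H9, 336 to 511 in naive H9, 76.2 to 163 in primed RUES2 and 198 to 1068 in naive RUES2. Of 4 mesendoderm markers 3 were higher in both lines. Of 4 neural markers 2 passed the filter, TUBB3 and MAP2, and both were higher in both lines. PAX6 was at most 1.57 FPKM in primed and 0.217 in naive libraries, and SOX1 at most 0.633 and 0.774. The sum of the 4 was mostly TUBB3, which had 52.2 to 107 FPKM in primed and 164 to 293 in naive libraries. That sum was 66.6 to 112 FPKM in primed H9 and 175 to 190 in naive H9. In RUES2 it was 53.8 to 102 in primed and 230 to 304 in naive libraries. Of 4 endoderm markers 0 were higher and 1 lower in H9, 1 higher and 1 lower in RUES2, and the 1 trophoblast marker tested was called in neither line. Of 7 markers of pluripotent stem cells 0 were higher and 4 lower in H9, 1 higher and 6 lower in RUES2, with sums of at least 1093 FPKM in every library. Sums of 5 blood cell markers stayed between 0.925 and 2.35 FPKM.

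**Figure D4:**
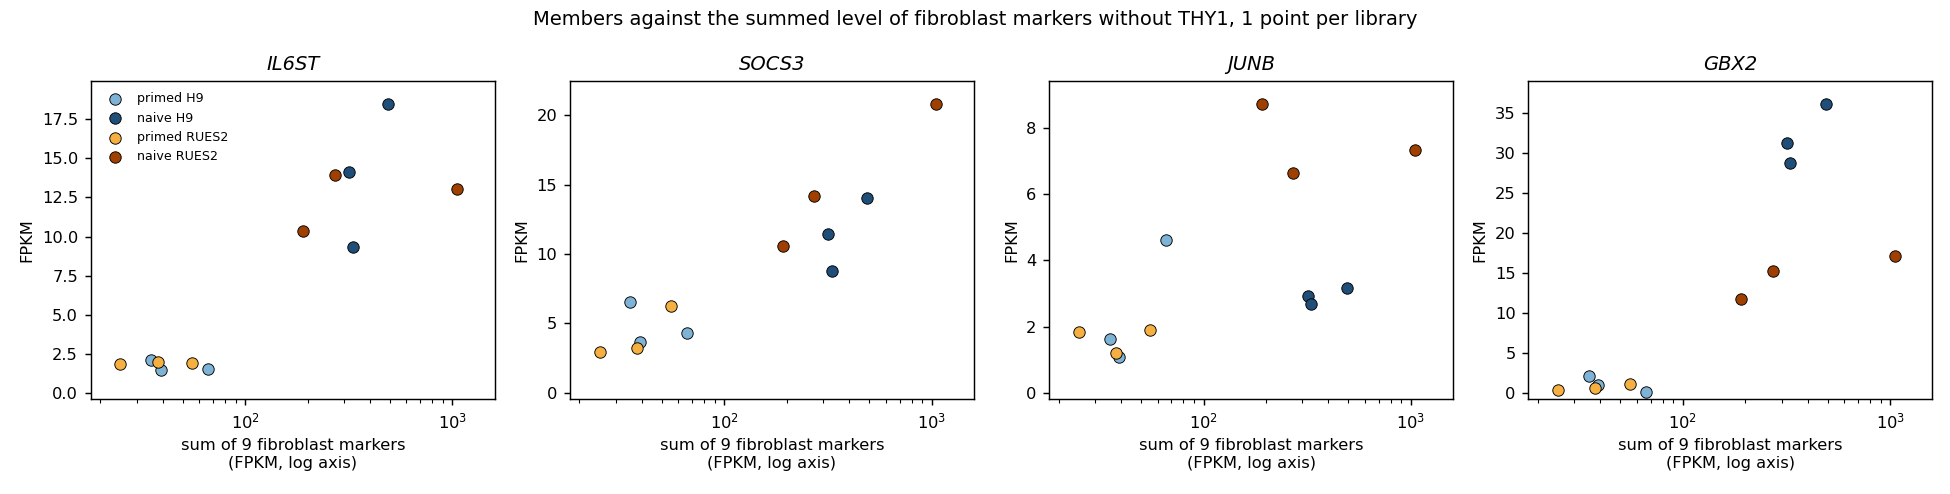
FPKM of IL6ST, SOCS3, JUNB and GBX2 (vertical axes) against the summed FPKM of 9 fibroblast markers, THY1 left out (horizontal log axis), 1 point per library, coloured by group. Naive libraries lie to the right of primed ones in every panel; the library with the highest marker sum, 1051 FPKM, has the highest SOCS3 but not the highest IL6ST, JUNB or GBX2.

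Naive RUES2 replicate 3 had the highest sum of the 9 fibroblast markers without THY1, 1051 FPKM, against 191 and 271 in the other naive RUES2 libraries. It also had the highest SOCS3, 20.8 FPKM. Its IL6ST, 13.0 FPKM, lay between those of the other naive RUES2 libraries, as did its JUNB, 7.33 FPKM. Its GBX2, 17.0 FPKM, was the highest of naive RUES2, and all naive H9 libraries, of another genotype, had more GBX2 at lower marker sums. Naive RUES2 replicate 2 had the lowest marker sum of the naive libraries, 191 FPKM. Within naive RUES2 it had the lowest IL6ST (10.3 FPKM), IL6R (2.80), JAK1 (5.98), SOCS3 (10.6), PIM1 (15.6) and GBX2 (11.7). Its STAT3 (33.3 FPKM) and JUNB (8.72) were the highest there, and its LIFR and BCL3 lay between the others. Within naive H9, replicate 3 had the highest marker sum, 489 FPKM against 318 and 329, and also the highest value of every member but PIM1. Replicate 2 had a higher marker sum than replicate 1, 329 against 318 FPKM, but a lower value of every member but BCL3. Whether other cell types were present, and what part they had in the differences of the members, was not tested.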

How the data were processed

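Poly(A) RNA-seq of 12 libraries in 4 groups was used. The submitters' processing notes name TopHat2 2.1.1, bcl2fastq 2.17.1.14 and build hg19. Which program and annotation gave the expression values is not given in the sources used. Per the file headers, the deposited values are FPKM per gene, each with bounds and a status; the design text says RPKM. Of 25278 entries, 2 values had a status other than OK and were dropped with their entries. Where a symbol had several loci (554 symbols), the one with the highest mean was used, leaving 23613. No libraries held identical values. Coordinates are 1-based.

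limma 3.58.1 (R 4.3.3) was fitted to log2(FPKM + 1), two-sided, with a mean per group over all 12 libraries and a variance trend, and was tested on simulated data. The members and lists were chosen with earlier results of these data known. All 10 members are named. Of the other pathway genes, all measured ligands and receptor chains and up to 8 called in both lines are named, and 3 genes most like each member; 2 genes that this selects are not reported here. Alternatives were the pseudocount, filter, scaling, trend, groups fitted, replicate block, sums over loci and each library left out. Leaving out the 3 libraries of unmatched genotype was chosen after seeing the data. Tables and plots used Python 3.11.15, numpy 2.4.6, pandas 2.3.3 and matplotlib 3.10.9.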

Additional observations from a re-analysis of the deposited data

Results flagged for a closer look

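The difference between naive and primed libraries was not the same in H9 and in RUES2 for 6 of the 51 other pathway genes tested, by limma's interaction term, beside 5.7% of all genes tested. The genotype of all naive RUES2 libraries did not match the label, so line, state and genotype cannot be told apart in these values. Apart from OSMR, they were chosen after their values were seen. Each value is the log2 difference of naive against primed in RUES2 minus that in H9, and 5 of the 6 calls depend on single libraries.

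MYC, a transcription factor of growth, had the largest, 4.57 (SE 0.47, adjusted p = 0.00108). It fell in H9 from 31.3 ± 11.96 to 14.5 ± 0.2 FPKM (adjusted p = 0.0343, lost without 1 of 5 H9 libraries, up to 0.124) and rose in RUES2 from 19.5 ± 3.1 to 265 ± 141 FPKM (SD, n = 3, adjusted p = 2.2e-05). IER3, an early response gene, had 1.72 (adjusted p = 0.0256), and ICAM1, an adhesion receptor, had 1.51 (adjusted p = 0.0296). OSMR had 0.80 (adjusted p = 0.0294) and SBNO2 had 0.71 (adjusted p = 0.0326). SOCS2, an inhibitor of cytokine signalling, went the other way, at -1.59 (adjusted p = 0.0222): it rose in H9 from 8.40 ± 3.30 to 22.5 ± 0.5 FPKM and was 14.6 ± 0.3 and 12.8 ± 3.2 in RUES2. Leaving out 1 library ended the interaction call of OSMR for 7 libraries (adjusted p up to 0.082), of SOCS2 for 6 (0.06), of IER3 for 5 (0.0724), of SBNO2 for 9 (0.0912) and of ICAM1 for 9 (0.0759), but never that of MYC. The call of ICAM1 was also lost with a pseudocount of 0.1 FPKM (0.0597). Without the unmatched libraries ICAM1 did not pass the filter. It was thus tested only because of naive RUES2, the group with its highest mean (2.82 FPKM), so its interaction call is a description.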

How the results depend on the processing

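Of 1188 values of the members under alternatives, 1146 kept their direction and side of the threshold, 23 lost and 8 gained a call, and 11 changed sign. IL6ST, IL6R and GBX2 kept their state calls in both lines under every alternative that tested them. With a filter of 5 FPKM, 3 members were called in H9, since fewer were tested. Leaving out 1 library gave 3 to 6 members in H9, 0 to 1 for the line difference and 1 to 4 between naive lines, with 379 to 861 genes called for the line difference, 44 to 385 between primed and 1179 to 2814 between naive lines. Genes called numbered 424 for the line difference, 102 between primed and 1469 between naive lines with a filter of 5 FPKM, and 27 between primed lines with only the groups compared. Without the 3 libraries of unmatched genotype, 94 genes were called between primed lines and 5 members stayed called in H9. The GBX2 call between naive lines was also lost with a pseudocount of 0.1 FPKM (adjusted p = 0.307) and without a filter (0.0627). Median-ratio scaling moved the share of higher calls between naive lines from 70.4% to 58.3%.

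Replicate numbers did not pair the libraries: correlations ran from -0.0537 to 0.136 for equal and -0.161 to 0.115 for different numbers, and 7 of 12 libraries correlated best with their own number. With the replicate block, 170 genes were called between primed lines, JAK1 was called lower in H9 (adjusted p = 0.0286) and PIM1 lower in RUES2 (0.0414), and calls were lost for GBX2 between naive lines (0.0773), MYC in H9 (0.0591) and the SBNO2 line difference (0.0601).

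Signs changed only for values not called, each with 1 library left out. IL6ST between naive lines ran from -0.36 to 0.10, PIM1 from -0.20 to 0.32 in H9 and from -0.24 to 0.041 between naive lines. IL6R ran from -0.15 to 0.20 for the line difference (-0.08, -0.0106 and -0.0218 were its other negative values), from -0.021 to 0.26 between primed and from -0.023 to 0.31 between naive lines. Between primed lines JUNB ran from -0.54 to 0.17 and GBX2 from -0.58 to 0.18. Depth limits BCL3, JUNB and primed GBX2 most.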
